A study of Mus musculus with 36 samples.

Results

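The comparison set the peri-ductal stroma of fetuses lacking estrogen receptor alpha (ERKO) against the stroma of their wild type counterparts, both after exposure to vehicle only. Its members were chosen by genotype, compartment and exposure as the labels give them, and they make up 6 of the 36 arrays of the series, 3 ERKO and 3 wild type. All fetuses were females on the C57BL/6 background, born of heterozygous matings, and were taken on embryonic day 19. Their mothers carried minipumps that delivered the DMSO vehicle from embryonic day 8. The other stroma arrays, used here only to follow the same genes, came from fetuses whose mothers received 250 ng/kg bisphenol A (BPA) or 10 ng/kg ethinylestradiol (EE2), with 3 arrays per genotype and agent, and the vehicle epithelium gave 3 arrays per genotype.

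The ERKO allele is a constitutive null, so the receptor was missing from every fetal tissue and not from the stroma alone. Each array came from 1 inguinal mammary gland of 1 fetus, and the 3 fetuses of a group came from 3 litters. The paper took 1 fetus per genotype from each treated litter, so ERKO and wild type fetuses may be littermates. The labels do not say which arrays share a litter. Stroma was cut by laser within a narrow zone around the ducts, and its RNA was amplified before hybridisation to Affymetrix arrays. Signals are given as intensity units of a probe set, the group of short probes that reads 1 transcript. These units have no fixed relation to RNA amount across probe sets, so levels were compared between arrays and not between genes.

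ERα is a nuclear receptor that binds estradiol and many environmental estrogens and then acts on target genes, either directly at estrogen response elements or through other transcription factors. In the mammary gland of the fetus it is known mainly from the mesenchyme and stroma around the epithelium, and in the adult from both stroma and luminal epithelium. The stroma sends growth factors, matrix proteins and proteases to the epithelial bud, and it also holds the precursors of the fat pad, vessels and macrophages. The comparison asks which transcripts of this tissue differ when the receptor is missing and no estrogenic compound was added.

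The 6 arrays differed in level in ways that did not follow genotype. Median signal was 38.3, 23.6 and 21.3 in the ERKO arrays, against 37.2, 12 and 37.2 in the wild type arrays. Wild type replicate 2 was the dimmest and correlated least with the other 5 (Pearson's r across probe sets 0.71 to 0.73, against 0.74 to 0.84 among the remaining pairs). Wild type replicate 3 had a summed signal of 23486 over the markers of keratinised epidermis, against 365 to 873 in the ERKO arrays and 147 and 438 in the other wild type arrays. Epithelium markers summed to 10470 in ERKO replicate 3 and 11481 in wild type replicate 3, against 1851 to 4651 in the other 4 vehicle stroma arrays and 18247 to 36897 in all epithelium arrays. Fibroblast markers summed to 44618 to 72001 in ERKO and 55577 to 71592 in wild type stroma. None of 15 such array measures differed between genotypes by an exact two-sided permutation test (smallest p = 0.4, adjusted p = 0.96), a test that cannot go below p = 0.1 with 3 against 3 arrays. Xist read 5866 to 7270 in the 6 vehicle arrays, but 29.5 in the BPA-exposed wild type stroma array of replicate 3 and 33.8 in its epithelium counterpart, against at least 5339 in the other 34 arrays. That stroma array is labelled female and was also the dimmest exposed stroma array, with a median signal of 14.6. The Y-linked transcripts Eif2s3y, Kdm5d and Uty read at most 23, 19.5 and 17.2 in any array of the series. Eif2s3y read 13.8 in that stroma array and 4.9 in its epithelium counterpart. The cause of the low Xist signal was not tested. The stroma array lacking Xist enters the spread shared by the stroma arrays, so many of the exposed log2 changes are given with and without it. Skeletal muscle markers summed to 51525 in wild type EE2 replicate 2, 36661 in ERKO BPA replicate 1 and 53069 in ERKO EE2 replicate 3. The other stroma arrays held 388 to 1127, and all exposed arrays stayed in the exposed comparison. In vehicle epithelium, wild type replicate 3 had sums of 15877 for keratinised epidermis and 47238 for fibroblast markers. The other vehicle epithelium arrays held 132 to 429 and 15167 to 35671. That array stayed in the epithelium comparison.

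**Figure D1:**
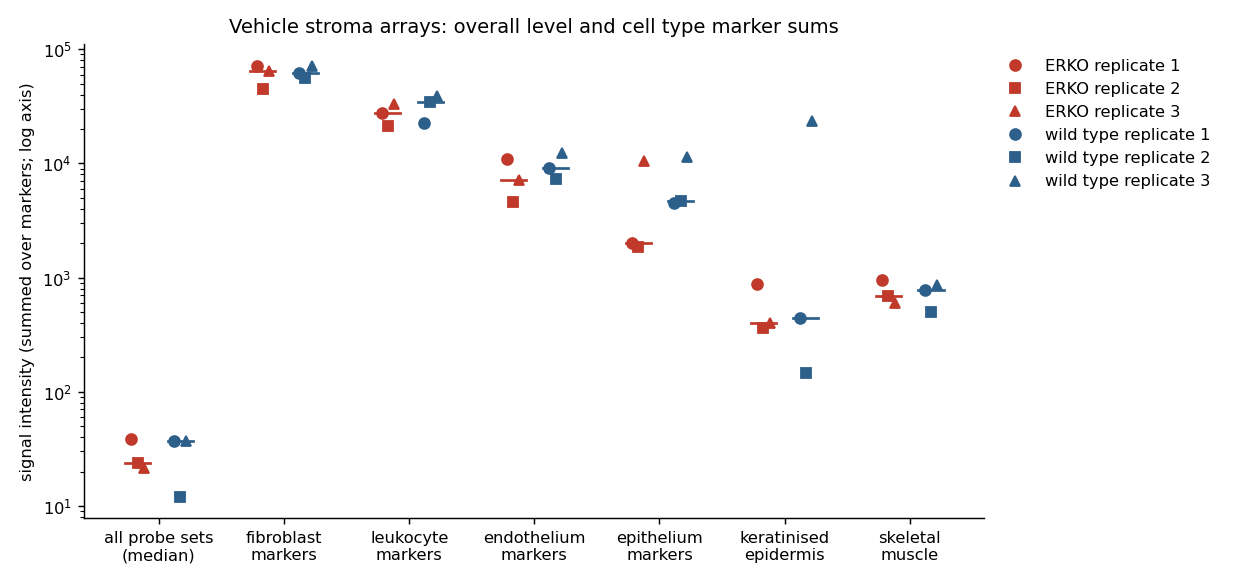
Median signal of all probe sets and summed signal of 6 marker lists (log axis, intensity units) in the 3 ERKO (red) and 3 wild type (blue) vehicle stroma arrays; points are arrays and lines are medians. Epidermis markers reached 23486 in wild type replicate 3, and epithelium markers were 10470 and 11481 in replicate 3 of ERKO and of wild type.

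Esr1, the gene that encodes ERα, was dim in ERKO stroma. Its brightest probe set read 26.3, 34.6 and 37.6 in the ERKO arrays, against 50.4, 201 and 397 in the wild type arrays. The groups did not overlap, and the spread lay almost wholly in the wild type arrays, whose highest value was several times their lowest. The log2 change was -2.29 ± 0.98 (SE; limma adjusted p = 0.999), and after quantile normalization of the arrays the groups overlapped. The other 2 Esr1 probe sets overlapped between genotypes, with 19.7 ± 11.7 in ERKO and 38.9 ± 47.9 in wild type for the first and 43.8 ± 12.5 against 116 ± 129 for the second (SD, n = 3 each). In exposed stroma the brightest probe set read 13.9 to 81.8 in 6 ERKO arrays, against 20.3 to 213 in 6 wild type arrays, a log2 change of -0.91, or -0.65 without the array lacking Xist. Which exon of the gene each probe set reads, relative to the disrupted part of the null allele, is not given in the sources used here, so these levels do not check the knockout in full.

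Across all probe sets, no transcript separated the genotypes once the number of tests was taken into account. None of 45101 probe sets reached an adjusted p under 0.05 in limma (0%), where the smallest adjusted p was 0.34. At an unadjusted p under 0.05, 982 probe sets were higher in ERKO (2.18%) and 853 lower (1.89%). The 3 ERKO arrays lay entirely above the 3 wild type arrays at 1588 probe sets (3.52%) and entirely below them at 1489 (3.3%). The median log2 change was 0.03, with a median standard error of 1.02, so that a single probe set had to change by several log2 units to stand out from the spread between arrays. With 1 probe set for each of 18194 genes, the brightest, 337 genes were higher (1.85%) and 296 lower (1.63%) at an unadjusted p under 0.05, and 610 (3.35%) and 628 (3.45%) did not overlap.

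Direction followed brightness. Among the 14508 probe sets under 20 units, 754 were entirely higher in ERKO and 388 entirely lower, whereas among the 4741 probe sets at 500 units and over, 42 were entirely higher and 246 entirely lower. After quantile normalization the brightest bin held 147 higher and 163 lower, and the dimmest 583 and 521. The excess of lower signals among bright probe sets was thus far smaller once the arrays had been brought to 1 distribution, and values of bright genes are given beside both scalings.

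**Figure D2:**
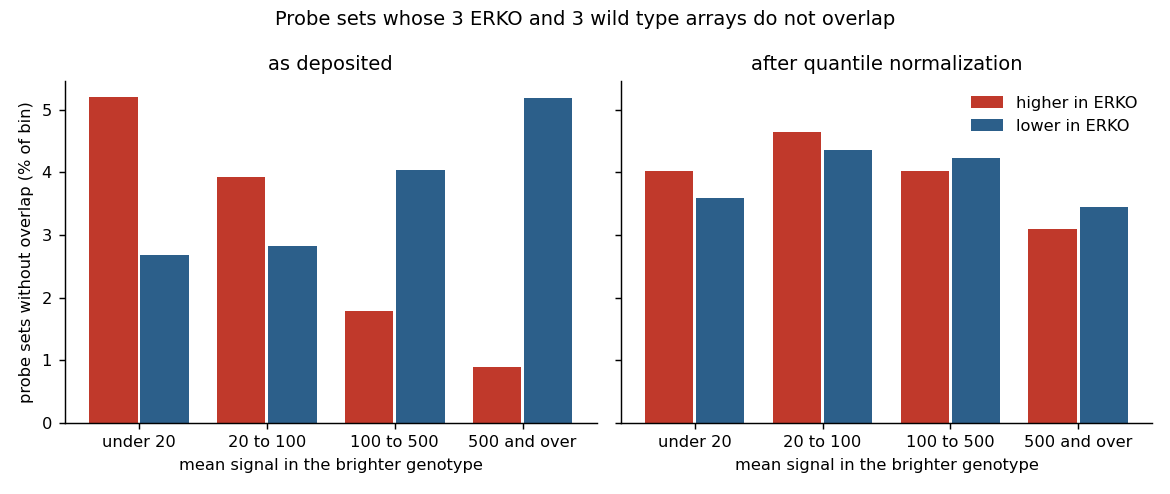
Share of probe sets (%, bars from 0) whose 3 ERKO arrays lay entirely above (red) or below (blue) the 3 wild type arrays, by mean signal in the brighter genotype, as deposited and after quantile normalization. As deposited, 42 of the 4741 brightest probe sets were higher and 246 lower; after quantile normalization 147 and 163.

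The probe set with the smallest p was Slc26a1, which encodes a sulfate and oxalate transporter. It read 17.6, 8.6 and 7.8 in ERKO stroma, against 0.8, 1.1 and 1 in wild type stroma. All 3 ERKO values were several times the highest wild type value, yet every value of both genotypes was below the median signal of its array. The log2 change was 3.46 ± 0.58 (limma adjusted p = 0.34). In exposed stroma, 6 other ERKO arrays read 7.8 to 18, against 0.4 to 1.7 in 6 other wild type arrays, and the log2 change of 3.69 ± 0.41 was the single call among 45101 probe sets (0.00222%; limma adjusted p = 0.0049). The 9 ERKO and 9 wild type stroma arrays thus did not overlap at this probe set. It was again the single call (0.00222%) without the array lacking Xist (adjusted p = 0.019). The call was lost with 16 units added to every value (log2 change 0.72), with values raised to at least 16 (0.028) and with a variance trend (adjusted p = 0.15), and the probe set was too dim to be tested among those at 100 units or more.

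The same transporter did not separate the genotypes elsewhere. In vehicle epithelium Slc26a1 read 11, 27.2 and 9.9 in ERKO and 57.3, 6.5 and 11.8 in wild type (log2 change -0.19). Its second probe set, whose design class may read other transcripts too, read 12.8, 3.1 and 0.7 in ERKO stroma and 1.1, 0.3 and 4.6 in wild type stroma. Slc26a1 was picked with earlier results of these data known. With 16 units added to every value its change in vehicle stroma was 0.67, and with values raised to at least 16 it was 0.05, since all but 1 of the 6 values lay under that level.

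RefSeq places 2 starts of Slc26a1 on the minus strand of chromosome 5 (GRCm38.p6), on another chromosome than Esr1. The 250 bases before each start are shown because they belong to the 1 gene that passed the test in any stroma comparison, and Pi16, described next, follows because its ERKO mean was the higher one in both sets of arrays. Capitals mark the arm of the estrogen response element, GGTCA or its reverse complement TGACC.
Slc26a1 first start, chr5:108675366-108675615: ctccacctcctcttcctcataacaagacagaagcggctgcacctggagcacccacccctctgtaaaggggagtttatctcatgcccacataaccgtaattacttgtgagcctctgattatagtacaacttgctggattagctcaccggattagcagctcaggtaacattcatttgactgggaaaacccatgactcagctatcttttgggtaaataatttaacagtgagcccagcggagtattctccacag
Slc26a1 second start, chr5:108674797-108675046: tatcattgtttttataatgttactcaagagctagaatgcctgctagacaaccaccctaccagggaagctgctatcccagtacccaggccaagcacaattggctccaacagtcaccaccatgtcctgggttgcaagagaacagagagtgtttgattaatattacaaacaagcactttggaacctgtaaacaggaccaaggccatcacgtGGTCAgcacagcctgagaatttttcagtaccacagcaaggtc
Pi16, plus strand, chr17:29318632-29318881: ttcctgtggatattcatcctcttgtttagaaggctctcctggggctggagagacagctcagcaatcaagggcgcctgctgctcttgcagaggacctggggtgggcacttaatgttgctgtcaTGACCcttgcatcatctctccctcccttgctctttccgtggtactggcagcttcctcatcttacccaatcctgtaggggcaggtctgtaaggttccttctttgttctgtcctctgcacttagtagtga
The first Slc26a1 window held no such arm, and the second Slc26a1 window and the Pi16 window held 1 each. An arm stood in 35.2% of all 32851 promoter windows of this length, searched on both strands, and the full element, GGTCA and TGACC with 3 bases between them, in 21 (0.0639%). No promoter of the 24 genes named below held the full element among the 27 windows matched, which covered 20 of those genes. An arm stood in 4 of 16 windows of the higher genes (25%) and in 7 of 11 windows of the lower genes (63.6%). Windows of 1 gene can overlap, and the difference was not tested.

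A probe set of Ncam1, the neural cell adhesion molecule, was also higher in ERKO. Ncam1 read 28, 8.3 and 9.2 in ERKO stroma, against 1.1, 0.2 and 0.5 in wild type stroma, a log2 change of 4.75 ± 1.15 (adjusted p = 0.999). In exposed stroma the same probe set read 12.7 to 91.2 in ERKO and 0.4 to 19.1 in wild type (log2 change 3.37, or 3.07 without the array lacking Xist), with overlap (adjusted p = 1.00). The brightest Ncam1 probe set, however, read 568, 140 and 366 in ERKO and 466, 123 and 227 in wild type, a log2 change of 0.38 ± 0.78. The probe sets of this gene thus disagreed, and Ncam1 too was picked with earlier results known.

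Pi16, which encodes a peptidase inhibitor used as a marker of fibroblast progenitors, had higher mean signal in ERKO stroma in each set of arrays. Pi16 signal was 418, 249 and 106 in ERKO and 90.4, 14.6 and 53.6 in wild type vehicle stroma, without overlap under either scaling. The log2 change was 2.43 ± 1.24. In exposed stroma it read 102 to 882 in ERKO and 3.1 to 168 in wild type, with overlap and a log2 change of 2.43 (adjusted p = 1.00), or 1.57 without the array lacking Xist. Its other probe set, dimmer, read 80.5, 3.6 and 7.8 against 21.9, 5.8 and 86.5 and overlapped. Of 20 fibroblast markers measured, Pi16 was the only one entirely higher (5%, against 3.35% of all genes), and none was entirely lower. The list had a median log2 change of -0.07, which was 0.10 after quantile normalization.

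Close behind Slc26a1 in p came 2 other dim probe sets, both singled out after their values were seen. Prox2, encoding a homeobox protein, read 2.5, 1.9 and 1.7 in ERKO and 86.1, 58 and 47.1 in wild type stroma (log2 change -4.94 ± 0.84, adjusted p = 0.34). In exposed stroma Prox2 read 1 to 44.5 in ERKO and 0.9 to 37.5 in wild type, and the groups overlapped (log2 change -0.21, or -0.37 without the array lacking Xist). The transcript 4930455H04Rik read 10.4, 15.6 and 11.8 in ERKO and 1.3, 0.8 and 1.3 in wild type, a log2 change of 3.49 ± 0.59, against 0.80 in exposed stroma (0.60 without the array lacking Xist).

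The clearest higher signals at 100 units or more came from 12 genes, chosen by the smallest p among probe sets without overlap under both scalings. Use1, which encodes a SNARE protein of transport between Golgi and endoplasmic reticulum, read 1117, 434 and 1306 in ERKO and 279, 40.6 and 183 in wild type (log2 change 2.75 ± 0.84). A second Use1 probe set gave 894, 851 and 3476 against 376, 240 and 468, also without overlap, whereas the third, dim one was lower in ERKO (log2 change -2.12). Elovl1, an elongase of very long chain fatty acids, read 1865, 2222 and 2580 in ERKO and 153, 409 and 1099 in wild type (2.43 ± 0.73). Of the remaining Elovl1 probe sets, 2 gave log2 changes of 2.23 and 2.28 with overlap and the last -1.41. All 3 higher Elovl1 probe sets belong to the design class that may read more than 1 gene.

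Enzymes and a mitochondrial protein were among the others. Mrpl10, a protein of the mitochondrial ribosome, read 376, 627 and 565 in ERKO and 154, 30.7 and 161 in wild type. Hadhb, a subunit of the trifunctional enzyme of fatty acid oxidation, read 270, 316 and 142 in ERKO and 23.3, 3 and 77.5 in wild type. Lpcat1, which remodels phosphatidylcholine, read 353, 1082 and 308 in ERKO and 89.9, 7 and 119 in wild type. In each of these the wild type minimum was the dim replicate 2, so the lowest value of the comparison came from the array with the lowest median. All 3 probe sets stayed separate after quantile normalization because the rule required it, so this is no check on the dim array. Other probe sets of Hadhb and Lpcat1 ran the other way with overlap. The 2 brighter ones of Hadhb gave log2 changes of -0.72 and -0.25. Their means were 1402 and 1079 in ERKO and 1946 and 1542 in wild type. Among the other 4 of Lpcat1, the one at 235 and 370 gave -0.71 and a dim one -0.23. The remaining ones of Lpcat1 gave 0.83 and 1.30.

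The higher set also held 3 genes of signalling. Adcy9, an adenylyl cyclase, read 91.4, 53.8 and 168 in ERKO and 11, 1.4 and 22.4 in wild type (log2 change 3.74 ± 0.90). Prkg1, the cGMP-dependent kinase, read 23.9, 333 and 91.9 against 17.8, 2.2 and 16.1, and Mknk1, a kinase of the translation factor eIF4E, read 119, 94.4 and 91.7 against 28.5, 18.1 and 41.3. Mknk1 was the tightest of these within each genotype. Another Mknk1 probe set, with means of 60.2 in ERKO and 130 in wild type, overlapped and gave -0.26, and the third gave 0.96. Zfp687, Gle1, Btbd9 and Lrrc41 completed the set, with log2 changes of 4.60, 5.48, 3.96 and 1.82. Gle1, a factor of mRNA export, read 237, 101 and 510 in ERKO and 1.9, 1.7 and 42.7 in wild type. A brighter Gle1 probe set was lower in ERKO, at 443, 79.6 and 74.4 against 889, 364 and 337 (-1.79 ± 0.78), while the other 5 had higher ERKO values on the log2 scale, so the probe sets of Gle1 disagreed.

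The 12 clearest lower signals included a growth factor of lymphatic vessels. Vegfd read 3.3, 38.1 and 16.5 in ERKO and 118, 253 and 180 in wild type, a log2 change of -3.78 ± 0.93 (limma adjusted p = 0.999). Its other 2 probe sets had log2 changes of -2.57 and -2.28, so all 3 probe sets of Vegfd had lower means, with values in wild type replicate 2 of 1232 and 1189. In exposed stroma Vegfd read 32 to 159 in ERKO and 15.9 to 124 in wild type, and the log2 change was 0.57, or 0.35 without the array lacking Xist.

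The lower set also held receptors of immune cells and proteins of the spindle. Ccr2, the chemokine receptor of inflammatory monocytes, read 24.5, 3.6 and 24.7 in ERKO and 192, 55.8 and 214 in wild type (log2 change -3.34 ± 0.98). Fcgr4, an immunoglobulin Fc receptor, read 50.8, 1.3 and 6.1 in ERKO and 52.1, 1156 and 128 in wild type, so that ERKO replicate 1 and wild type replicate 1 were nearly equal. Tacc3, a protein of the mitotic spindle, read 67.1, 46.1 and 22.8 in ERKO and 239, 751 and 204 in wild type (-3.01 ± 0.87), and its other 2 probe sets had log2 changes of -1.84 and -0.97. Kif15, a spindle kinesin, read 20.9, 17.5 and 0.9 against 88.7, 166 and 106. In the list of 29 proliferation genes 18 were lower and 11 higher, none passed an unadjusted p under 0.05, none was free of overlap, and the median log2 change was -0.12, or 0.09 after quantile normalization.

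Ppm1l was the 1 gene among these 12 that also differed in the exposed stroma at an unadjusted p under 0.05. Ppm1l, which encodes a protein phosphatase of stress kinase signalling, read 15.8, 6.8 and 9.8 in ERKO and 43.8, 145 and 140 in wild type vehicle stroma (log2 change -3.24 ± 0.81). In exposed stroma it read 2.1 to 19.8 in ERKO and 16.1 to 122 in wild type, a log2 change of -1.94 (adjusted p = 1.00), or -2.05 without the array lacking Xist. The exposed difference was -3.18 in EE2 stroma and -0.70 in BPA stroma. In vehicle epithelium the change was 1.40, and the other 2 Ppm1l probe sets had log2 changes of 0.33 and 0.58 in vehicle stroma.

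Haghl, Rps20, Tbc1d20, Trim29, Txlng and Tsx made up the rest, with log2 changes between -4.82 and -2.05. Haghl, related to the glyoxalase enzymes, read 11.8, 2 and 8.2 in ERKO and 63.6, 298 and 122 in wild type. Tsx owed its mean to 1 array, with 8.3, 6.8 and 3.3 in ERKO and 36.7, 2201 and 51.7 in wild type. Rps20, a protein of the small ribosomal subunit, read 68.9, 9.1 and 54.7 in ERKO and 445, 170 and 525 in wild type at the probe set that met the rule. Its 2 bright probe sets read 9339 to 12171 in ERKO and 7498 to 14026 in wild type, with overlap, so the probe sets of Rps20 disagreed. The 24 ribosomal protein genes measured had a median log2 change of -0.08, or 0.05 after quantile normalization, with none free of overlap.

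**Figure D3:**
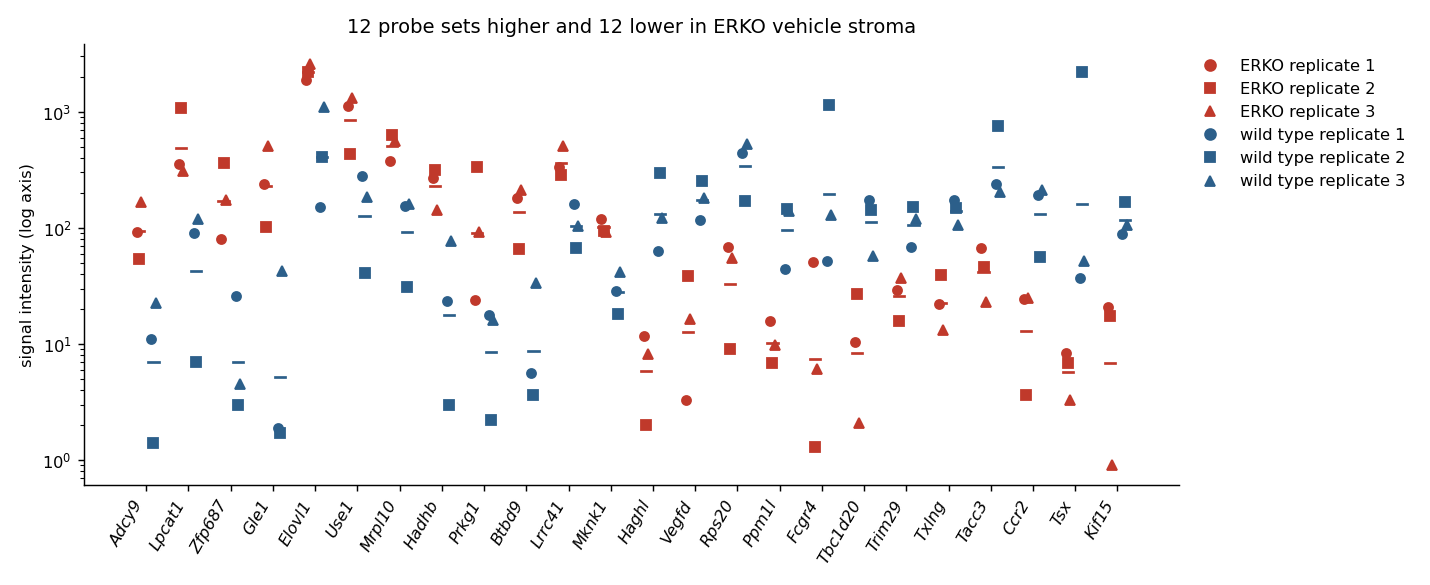
Signal intensity (log axis) of the 12 probe sets higher and the 12 lower in ERKO (red) than in wild type (blue) vehicle stroma; points are the 3 arrays of each genotype and lines are geometric means. The groups do not overlap because the rule required it, and wild type replicate 2 (blue squares) holds both the lowest value of each of the higher genes except Elovl1 and the 1156 and 2201 units of Fcgr4 and Tsx.

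Other probe sets of the same genes shared the direction only in part. The 12 higher genes had 26 further probe sets at 10 genes, of which 17 pointed up and 2 lay above wild type without overlap. The 12 lower genes had 18 further probe sets at 8 genes, of which 13 pointed down and 4 lay below wild type without overlap. Opposite log2 changes included -1.13 for Btbd9, 0.93 for Txlng and 0.04 for the brightest Tbc1d20 probe set. Over all probe sets 3.52% lay entirely above and 3.3% entirely below wild type. At the brightest probe set of each of 18194 genes, 9172 pointed up and 9022 down. These genes were chosen on the vehicle contrast itself, so their separation there is a description and no test.

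The choice did not use the genotype difference in exposed stroma, which came from other fetuses. The exposed arrays did enter it through the spread behind p and through the quantile normalization, both taken over all 18 stroma arrays. Nor did the choice use the vehicle epithelium. That tissue was captured from the same glands of the same fetuses as the vehicle stroma and is no separate set of animals. Of the 12 higher genes, 7 were higher in exposed ERKO stroma, 5 without the array lacking Xist, and none passed an unadjusted p under 0.05, as 2.73% of all probe sets did. Of the 12 lower genes, 3 were lower in exposed ERKO stroma, or 6 without that array, and 1 passed, which was Ppm1l, beside 0.887% of all probe sets. In vehicle epithelium 5 of 12 higher and 5 of 12 lower genes kept their direction. The wider pool met the same rule with no limit on number and held 123 probe sets of 119 genes that were higher and 258 of 246 genes that were lower. Of its higher probe sets 70.7% were higher in exposed ERKO stroma, against 67.3% of all 13318 probe sets of this brightness, and of its lower ones 31.8% were lower, against 32.7%. The median log2 change of the higher pool was 1.96 in vehicle and 0.22 in exposed stroma, and of the lower pool -1.91 and 0.26. Without the array lacking Xist the shares were 47.2% against 48.6% for the higher pool and 51.2% against 51.4% for the lower, and the exposed medians were -0.031 and -0.025. In vehicle epithelium of the same fetuses 66.7% of the higher pool were higher, against 56.8% of all probe sets of this brightness, and 46.9% of the lower pool were lower, against 43.2%. These epithelium shares include the wild type replicate 3 array with the high epidermis and fibroblast sums. None of the 45101 probe sets (0%) differed between vehicle and exposed stroma in its genotype effect at an adjusted p under 0.05 by limma's interaction term, where 634 (1.41%) and 1116 (2.47%) had an unadjusted p under 0.05 with the vehicle effect above and below the exposed one.

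**Figure D4:**
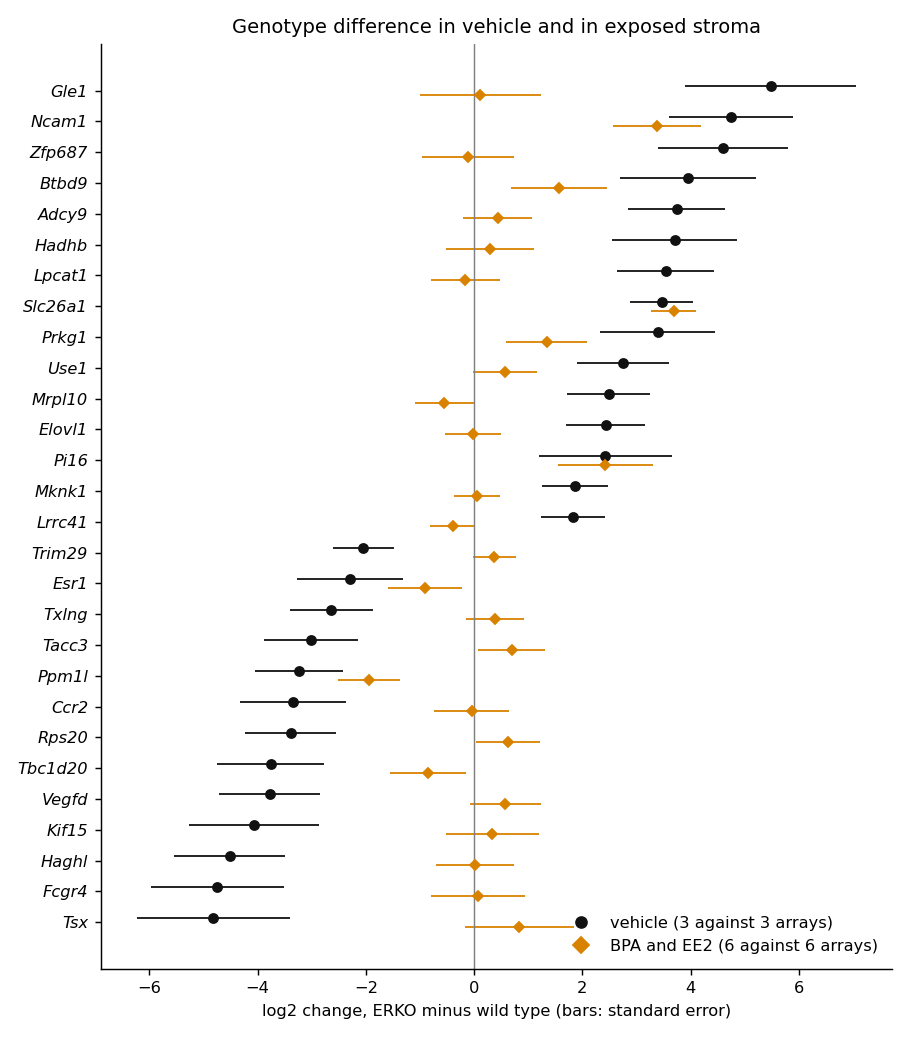
Log2 change, ERKO minus wild type, with its standard error (bars), in vehicle stroma (black circles, 3 against 3 arrays) and in BPA- and EE2-exposed stroma (orange diamonds, 6 against 6 arrays) for the 24 genes, Slc26a1, the dim Ncam1 probe set, Pi16 and Esr1. Slc26a1 had log2 changes of 3.46 and 3.69 and Pi16 of 2.43 in both (exposed 1.57 without the array lacking Xist), whereas the exposed changes of the 24 genes lie between -1.94 and 1.57 with all 12 arrays.

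The receptors that bind estrogens or BPA were described as a list of 15 measured members. None passed the adjusted test, none was higher and 2 were lower at an unadjusted p under 0.05 (13.3%, against 1.63% of all genes), the targeted Esr1 itself and Gper1. Gper1, the G protein-coupled membrane receptor for estradiol, read 66.5, 68.2 and 128 in ERKO and 162, 1207 and 599 in wild type (log2 change -2.55 ± 0.98, adjusted p = 0.999). The groups overlapped after quantile normalization. Its other probe set read 15.6, 30.8 and 29 in ERKO and 35.4, 10 and 19.6 in wild type, and the probe set that differed belongs to a class that can read other transcripts. In exposed stroma Gper1 read 35.6 to 221 in ERKO and 22.2 to 193 in wild type (log2 change 0.12, or -0.29 without the array lacking Xist).

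The remaining receptors overlapped between genotypes, apart from Pgr. Pgr, the progesterone receptor and a classical ERα target, read 37.4, 22 and 36.3 in ERKO and 10.7, 11.4 and 20.1 in wild type stroma, a log2 change of 1.20 ± 1.43. All were dim values, and the separation was lost after quantile normalization. Another Pgr probe set ran the other way, with 1.6, 0.4 and 0.8 in ERKO and 4.6, 30.3 and 3.1 in wild type (-3.24 ± 0.94), so no direction can be given for Pgr. Esr2, the second nuclear estrogen receptor, read 14.8, 50 and 2.6 in ERKO and 26, 5.4 and 3.6 in wild type. The estrogen-related receptors Esrra, Esrrb and Esrrg, of which Esrrg binds BPA, had log2 changes of 0.27 ± 0.85, 0.25 ± 1.13 and -0.86 ± 0.81. A second Esrra probe set was lower in ERKO, at 56, 9.9 and 13 against 123, 29.4 and 157 (log2 change -2.10).

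Steroid and thyroid hormone receptors and the sensors of foreign compounds showed no separation. Nr3c1, the glucocorticoid receptor, read 315, 644 and 162 in ERKO and 189, 80.7 and 730 in wild type. Thra read 523, 979 and 658 against 519, 1006 and 748, a log2 change of -0.07, and Pparg, the master regulator of adipocytes, read 891, 942 and 508 against 363, 390 and 1340 (0.39 ± 0.73). Nr3c2, Thrb, Nr1i2, Nr1i3 and Ahr had log2 changes of -0.07, 0.33, 0.57, -0.40 and 1.22, each with overlap. The median change of the list was 0.27 in vehicle and 0.41 in exposed stroma, beside 0.01 and 0.20 over all genes. Without the array lacking Xist the exposed medians were 0.081 and 0.024.

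**Figure D5:**
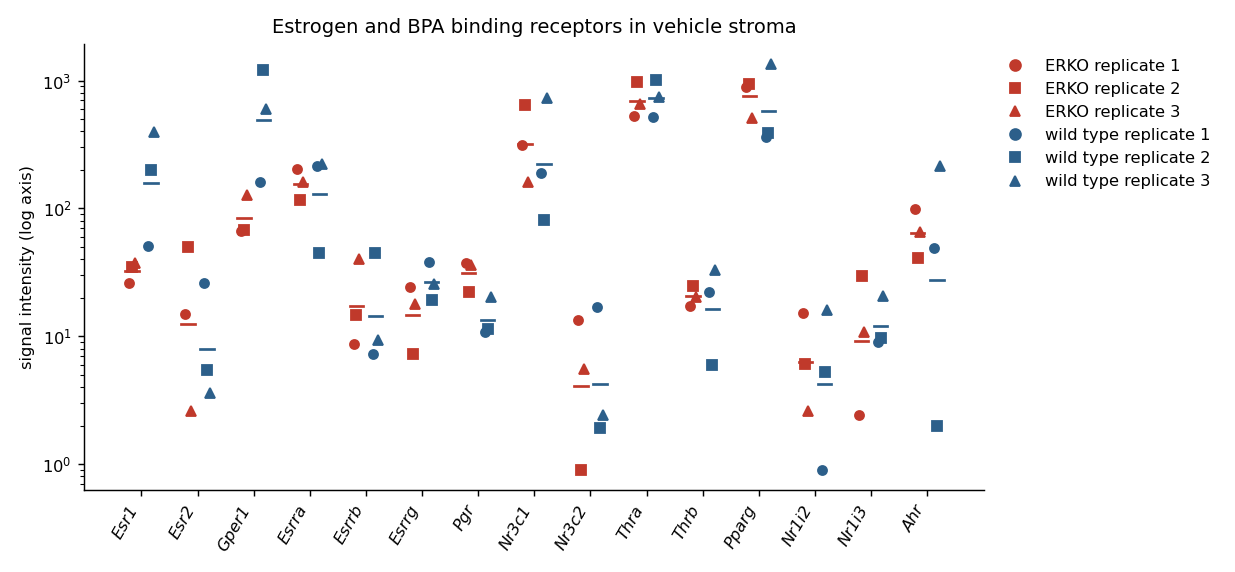
Signal intensity (log axis) of the brightest probe set of 15 receptors in the 3 ERKO (red) and 3 wild type (blue) vehicle stroma arrays; points are arrays and lines are geometric means. Esr1 and Gper1 are lower and Pgr higher in ERKO without overlap, and the other 12 receptors overlap.

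Coregulators and known targets of ERα held few members past the unadjusted threshold. Of 18 coregulators 1 was lower at an unadjusted p under 0.05 (5.56%, against 1.63% of all genes) and none was free of overlap. That gene was Pelp1, a scaffold of ERα signalling, with 181, 88.3 and 164 in ERKO and 168, 1918 and 541 in wild type. Of 37 estrogen-responsive genes, none was higher and 2 were lower at an unadjusted p under 0.05 (5.41%, against 1.63%), Tff1 and Esr1 itself. Tff1, a trefoil peptide induced by estrogen in human breast cancer cells, read 9, 33 and 4 in ERKO and 55.9, 37.9 and 67.9 in wild type (log2 change -2.31). The median changes of the 2 lists were -0.48 and -0.25, and -0.26 and -0.18 after quantile normalization. Of 37 genes for signals from stroma to epithelium 1 was higher (2.7%, against 1.85%) and none lower at that p. Wnt2 read 103, 14.5 and 15.4 in ERKO and 2.1, 1.1 and 13.9 in wild type.

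Several matrix genes lay entirely lower in ERKO, most by small differences. Of 44 extracellular matrix genes, 6 were entirely lower (13.6%, against 3.45% of all genes) and none entirely higher, 1 was lower at an unadjusted p under 0.05 (2.27%, against 1.63%), and the median log2 change was -0.29. All 44 reached a mean of 100 units in at least 1 genotype, the range in which the deposited scale itself leaned to lower signals, and after quantile normalization the median was -0.10. Hspg2, the basement membrane proteoglycan perlecan, read 209, 33 and 257 in ERKO and 547, 274 and 1622 in wild type (log2 change -2.37 ± 1.04). Emilin1, a glycoprotein of elastic fibres, read 96, 51.7 and 70.3 against 158, 195 and 191 (-1.36 ± 0.79). Emilin1 was even within wild type, and it kept its separation after quantile normalization.

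Genes that the study names gave similar values. Tnc, the mesenchymal matrix protein tenascin C, read 1689, 522 and 1865 in ERKO and 2049, 2474 and 1867 in wild type, where ERKO replicate 3 and wild type replicate 3 were almost the same. The log2 change was -0.84 ± 0.63. Col5a3, a fibrillar collagen chain, read 678, 452 and 333 against 787, 976 and 811 (-0.87 ± 0.67), and both genes overlapped after quantile normalization. Vcan, Ccnd1, Fabp4 and Hcar1 overlapped as deposited, with log2 changes of -0.71, -0.71, -0.12 and -0.54. Fabp4, the fatty acid binding protein of adipocytes, read 11701, 13189 and 8387 in ERKO and 9943, 12365 and 13543 in wild type. Trim29, a ubiquitin ligase of basal epithelium and the remaining gene without overlap, read 29.2, 15.8 and 37.1 in ERKO and 67.8, 150 and 118 in wild type (-2.05 ± 0.57), and its exposed log2 change was 0.37, or 0.27 without the array lacking Xist. These 7 genes and Pparg, 8 in all, were named by the study from the same samples and are no independent evidence. The study also prints other genes named here, among them Lrrc41, Btg2 and Thra in its lists of ERα-regulated stroma transcripts. Those are no independent evidence either.

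Focal adhesion genes gave 4 of 34 entirely lower (11.8%, against 3.45% of all genes and 246 of the 4741 brightest probe sets) and 1 entirely higher (2.94%, against 3.35%). Parva, which links integrins to actin, read 287, 442 and 168 in ERKO and 643, 777 and 543 in wild type (log2 change -1.22 ± 0.73), and Itgb5, an integrin chain that binds vitronectin, read 111, 160 and 124 against 200, 367 and 310 (-1.13 ± 0.65). Both overlapped after quantile normalization. Bcar1, a docking protein of adhesion signalling, had a log2 change of -0.97, with a second probe set at 0.17. Flna, the actin cross-linker filamin A, ran the other way, with 1359, 1005 and 1450 in ERKO and 904, 245 and 831 in wild type (1.14 ± 0.69). The list's median was -0.27, and -0.12 after quantile normalization. In exposed stroma the medians of the matrix and focal adhesion lists were 0.12 and 0.10, beside 0.20 over all genes, and without the array lacking Xist 0.048 and -0.14, beside 0.024.

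Some genes of vessels were lower in ERKO vehicle stroma, though the median of their list was near 0. Of 22 endothelium markers 4 were entirely lower (18.2%, against 3.45% of all genes), 3 were lower at an unadjusted p under 0.05 (13.6%, against 1.63%), and the median log2 change was -0.11, or 0.08 after quantile normalization and -0.98 without wild type replicate 2. Plvap, a protein of fenestrated endothelium, read 220, 137 and 312 in ERKO and 563, 972 and 646 in wild type (-1.75 ± 0.68). Vwf, the clotting factor of endothelial granules, read 12.5, 55.8 and 69.5 against 347, 129 and 200 (-2.51 ± 1.01). Kdr, the main receptor of VEGF-A, read 383, 174 and 53.4 against 511, 408 and 835 (-1.87 ± 0.89), and Pecam1, an adhesion molecule of endothelial junctions, read 477, 431 and 233 against 1196, 1204 and 778 (-1.52 ± 0.76). Of the 4, Pecam1 overlapped after quantile normalization. The other 18 markers were spread on both sides, and the summed list was 4588 to 10867 in ERKO and 7252 to 12410 in wild type. In exposed stroma Plvap, Vwf, Kdr and Pecam1 had log2 changes of 0.20, 1.06, 0.77 and 0.81, and without the array lacking Xist -0.16, 0.63, 0.28 and 0.37. In bulk tissue, fewer cells of a type and less RNA per cell cannot be told apart.

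Among 27 leukocyte markers, 2 were entirely lower (7.41%, against 3.45% of all genes) and 1 entirely higher (3.7%, against 3.35%). At an unadjusted p under 0.05, 3 were lower (11.1%, against 1.63%) and 1 was higher (3.7%, against 1.85%). Of 16 smooth muscle and pericyte markers 2 were entirely lower (12.5%) and 1 was lower at that p (6.25%). Cd163, the haemoglobin scavenger receptor of tissue macrophages, read 314, 225 and 107 in ERKO and 544, 1524 and 702 in wild type (log2 change -2.09 ± 0.92), while the leukocyte list had a median of -0.16 (0.03 after quantile normalization) and summed to 21298 to 33384 in ERKO and 22721 to 38587 in wild type. Myh11, the myosin of smooth muscle, read 102, 315 and 158 in ERKO and 1355, 2468 and 1250 in wild type (-3.23 ± 1.30), and Mylk read 1012, 1355 and 1681 against 3255, 1777 and 2816 (-0.94 ± 0.64, with overlap after quantile normalization). The smooth muscle and pericyte list had a median of 0.29, the opposite sign to Myh11, and -0.91 to 1.15 over the alternatives. In exposed stroma Cd163, Myh11 and Mylk had log2 changes of 0.96, 1.10 and -0.02, and without the array lacking Xist 0.58, 0.051 and -0.18. The second Myh11 probe set overlapped between genotypes.

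Epidermis set 1 wild type array apart. Krt1, the keratin of differentiating keratinocytes, read 1.2, 0.8 and 8.7 in ERKO and 2.7, 4.6 and 6277 in wild type. The 19 markers of keratinised epidermis had a median log2 change of -1.44, which was 0.74 without wild type replicate 3. Trp63, the transcription factor of basal epithelium, read 134, 50.9 and 163 in ERKO and 316, 284 and 208 in wild type (-1.35 ± 0.76), with overlap after quantile normalization. The part of epidermis in other wild type signals was not tested. Genes for the stress response were lower without overlap in 4 of 27 cases (14.8%, against 3.45% of all genes), but none of the 27 passed an unadjusted p under 0.05, and the median was -0.25. Btg2 read 84.9, 66.6 and 70.4 in ERKO and 124, 136 and 203 in wild type (-1.04 ± 0.57), Gadd45b had a log2 change of -1.30 and Hspb1 of -1.91.

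Genes of the fat pad, of respiration and of the neighbourhood of Esr1 held few members past that threshold. Of 40 genes of adipogenesis and lipid storage none passed an unadjusted p under 0.05 and 1 was entirely lower (2.5%, against 3.45% of all genes). That was the oxysterol receptor Nr1h3, at 119, 99.4 and 96.9 in ERKO and 164, 128 and 127 in wild type. The 33 genes of oxidative phosphorylation had a median log2 change of -0.10 (0.02 after quantile normalization). Of these 1 was higher at an unadjusted p under 0.05 (3.03%, against 1.85% of all genes). The erythroid markers had a median of 1.21 over 12 genes, of which 2 averaged 100 units or more, and 0.26 without wild type replicate 2. Genes next to Esr1 were read because DNA around a targeted allele can stem from another strain, and 16 of the 20 nearest genes were measured. None passed an unadjusted p under 0.05, and 1 was entirely higher, as were 3.35% of all genes. Their log2 changes ran between -2.05 and 1.49, with a median of -0.04. The gene without overlap was Oprm1, the mu opioid receptor, at 24.3, 12 and 18.5 in ERKO and 6.5, 10.7 and 7.3 in wild type.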

How the data were processed

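Total RNA of laser-captured stroma was amplified and hybridised by the authors to Affymetrix Mouse 430 2.0 arrays. The deposited values are linear signal intensities of 45101 probe sets in 36 arrays; the submitters' processing notes name GCOS, and the scaling target is not given in the sources used here. Array medians differed, so the values were not quantile normalised. The study's methods name RMA, but the deposited values are not on its log scale.

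Values under 0.1 were set to 0.1 and log2 transformed. Group means of 18 stroma arrays were fitted with limma 3.58.1 (R 4.3.3), and p-values were adjusted by Benjamini and Hochberg across the 45101 probe sets. limma replaced the methods' analysis of variance and Welch test, which made no correction. The script was tested on simulated data whose planted changes were larger than any change named here. Recovery of changes of the size seen in these arrays was not tested. p-values measure against the spread between fetuses within groups, pooled over all 18 stroma arrays, exposed ones included. The number of arrays limits the precision. ERKO and wild type fetuses may share litters, but the labels do not say which, so the fit has no block.

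Symbols came from the platform annotation (34958 probe sets with 1 symbol, 932 with several, 9211 with none) and were updated through RefSeq, which also gave the promoters. A gene in a list was read by its brightest probe set. Named genes were the receptors and the genes the study prints, the 12 higher and 12 lower with the smallest p among probe sets without overlap under both scalings, at 100 units or more and a log2 change of at least 1, up to 4 such members per list, and Slc26a1 and Ncam1. Members, lists and alternatives were chosen with earlier results of these data known. Listed genes that matched no single-symbol probe set were not analysed here.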

Additional observations from a re-analysis of the deposited data

Results flagged for a closer look

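The named probe set of each of 3 genes was entirely on one side of wild type in ERKO vehicle stroma and entirely on the other side in EE2-exposed stroma. They were found by scanning the 69 named probe sets against BPA stroma, EE2 stroma and vehicle epithelium. In vehicle stroma 3.52% of all probe sets lay entirely above wild type and 3.3% entirely below. The matching shares in EE2-exposed stroma are not given here. The difference between vehicle and EE2-exposed stroma was not tested. The brightest Pgr probe set was higher in vehicle ERKO stroma (log2 change 1.20), a separation lost after quantile normalization and opposed by another Pgr probe set (-3.24). With EE2 the brightest one was lower, with 9.3, 0.5 and 6.4 in ERKO and 10.5, 19.8 and 19.1 in wild type (-2.35). Hspg2 was lower in vehicle ERKO stroma (-2.37), but read 621, 697 and 1436 in ERKO and 558, 88.5 and 97.2 in wild type with EE2 (2.34). Trp63 was lower in vehicle ERKO stroma (-1.35), with overlap after quantile normalization, but read 160, 190 and 511 in ERKO and 39, 141 and 39 in wild type with EE2 (2.06). The difference between vehicle and all exposed stroma had an unadjusted p of 0.39 for Pgr, 0.0075 for Hspg2 and 0.028 for Trp63 (limma adjusted p = 1.00 for each).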

How the results depend on the processing

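No alternative moved any of the 24 genes to the other side of wild type, but the rule that chose them required separation under both scalings. Most alternatives could therefore not reverse them, and their constant direction is no check. Of 69 named probe sets 13 reversed somewhere, all overlapping receptors, Hcar1, Fabp4 or the bright Ncam1 probe set. With values raised to at least 16, 2 probe sets passed the adjusted p in vehicle stroma, 3 in exposed stroma and 1 for their difference, 680 were higher without overlap, and the exposed Slc26a1 change was 0.028. With 16 added, no exposed probe set passed and Slc26a1 was 0.72. With a variance trend none passed either, and Slc26a1 stayed at 3.69 (limma adjusted p = 0.15). Among probe sets at 100 units or more, 207 were higher and 507 lower at an unadjusted p under 0.05, 227 and 665 did not overlap, and 0 exposed ones passed. Array weights gave 620 higher and 5 exposed calls. The methods' test with its fold limit gave 426 higher and 397 lower, and 0 after Benjamini-Hochberg adjustment.

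Leaving out 1 vehicle array gave 512 to 1812 higher and 662 to 1702 lower probe sets at an unadjusted p under 0.05, 2198 to 4387 and 2514 to 6093 without overlap, 0 at the adjusted p, and Esr1 between -3.12 and -1.63. The higher count was 1812 without wild type replicate 1, 1779 without wild type replicate 3 and 512 without wild type replicate 2, and the lower count was 1420 without wild type replicate 2 and 1702 without ERKO replicate 1. Leaving out 1 exposed array, chosen after seeing the data, gave 1 to 2 exposed calls and 3.53 to 3.86 for Slc26a1. Fitting the 6 vehicle arrays alone gave 754 higher and 581 lower at an unadjusted p under 0.05, and 0 at the adjusted p. ERKO and wild type vehicle arrays of the same replicate number had residual correlations of 0.025 to 0.089, against -0.089 to 0.033 for the other pairs. These values do not settle whether the numbers mark shared litters. With the number as a replicate block 859 probe sets were higher and 665 lower at an unadjusted p under 0.05, 0 at the adjusted p.

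Reversed values were, with quantile normalization, Thra 0.19. With values raised to at least 16 they were Esrrb -0.054, Thrb -0.15, Nr1i3 0.18 and Hcar1 0.10, and with array weights Esrra -0.21, Thra 0.11 and Thrb -0.11. Leaving out 1 vehicle array moved log2 changes across 0 for Ahr -0.68 to 2.69, Esr2 -0.36 to 1.77, Esrra -0.49 to 0.67, Esrrb -0.36 to 1.07, Fabp4 -0.26 to 0.068, Hcar1 -1.32 to 0.94, Ncam1 -0.083 to 0.95, Nr1i2 -0.55 to 1.53, Nr1i3 -1.25 to 0.57, Nr3c1 -0.22 to 1.37, Nr3c2 -0.93 to 1.02, Thra -0.32 to 0.16 and Thrb -0.40 to 0.84. The cause was not tested. Signals near the floor limit what dim probe sets can show.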

Other observations

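Wnt2, Cd79a and Dsc1 were dim genes outside the rule for named genes and were singled out after their values were seen. Cd79a, a component of the B cell receptor, read 31.1, 26.5 and 37.3 in ERKO and 2.7, 3.2 and 1.3 in wild type vehicle stroma (log2 change 3.81), and its change in exposed stroma was -1.17. Dsc1, a desmosomal cadherin of epidermis, read 2.7, 3.7 and 0.9 in ERKO and 26.5, 6.8 and 65 in wild type (-3.45), and 1.11 in exposed stroma. Wnt2 had a log2 change of 3.16 in vehicle and 1.12 in exposed stroma. Esam, a junction protein of endothelium, read 372, 92.6 and 110 in ERKO and 249, 1548 and 1565 in wild type, with the smallest p of the endothelium list (0.0085) despite overlap.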
